A study of Mus musculus with 10 samples.

Results

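The genes described here are the members of the SOX, FOX, TBX and sine oculis families and of the TWIST, SNAI and ZEB group, all transcription factors, as they were measured in skeletal stem and stromal cells of the mouse. They were chosen by a rule on symbols, set with earlier results of these data known. The rule took every gene of the deposited table whose symbol is a family name of these (for Fox with a letter from a to s) and a number, except Sox9, Foxc1, Tbx4 and Tbx5. This gave 43 of the 15078 genes in the table, namely 20 FOX, 8 SOX, 5 TBX and 4 sine oculis genes and 6 of the TWIST, SNAI and ZEB group. The mouse annotation lists 84 protein-coding genes with symbols of these families.

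RNA was sequenced from 10 libraries of sorted CD51+CD200+ cells. The graft BM-MSC group (n = 4) held Tomato+ mesenchymal stem cells from the marrow of femurs of POSTN-CRE mice (a tamoxifen-inducible Cre under the Postn promoter with a tdTomato reporter), which had been transplanted under the skin of wild-type recipients. The recipients were given tamoxifen, and the cells were sorted 5 months after transplantation. The BM-MSC group (n = 3) and the P-SSC group (n = 3) held cells from marrow and from periosteum, the sheath that covers bone, both of wild-type mice at steady state. In each steady-state group 1 library combined RNA of 2 mice (BM-MSC 2+4 and P-SSC 2+5). Cells outside the periosteum can use Postn too, so Tomato marks cells that had used Postn and their descendants. The graft differed from the steady-state groups in genotype and transplantation together, and may also have differed in tamoxifen and age. The sample titles call the steady-state mice host and give no tamoxifen treatment or age for them. The comparison asks how near the Tomato+ marrow cells of the graft are to either steady-state population.

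SOX proteins bind the minor groove of DNA with an HMG box, FOX proteins bind with a winged helix, TBX proteins with a T-box and sine oculis proteins with a homeodomain, mostly in a complex with EYA coactivators. SNAI and ZEB proteins are zinc finger repressors at E-box sites and TWIST proteins are basic helix-loop-helix factors, and all of them are best known for holding cells in a mesenchymal state. In the skeleton, members of these families pattern limb mesenchyme (TBX, TWIST), assist SOX9 in cartilage (SOX5, SOX6) and set the response of osteoblast precursors to insulin and oxidative stress (FOXO).

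Promoters are shown for members that passed the test between graft BM-MSCs and BM-MSCs, the comparison of marrow with marrow. Each is the 250 bases before the RefSeq start (GRCm38.p6), printed 5′ to 3′, for Sox4 at chr13:28953700-28953949 (minus strand), Six2 at chr17:85688255-85688504 (minus strand) and Foxo1 at chr3:52268087-52268336 (plus strand), which were higher in the graft, and for Sox8 at chr17:25570687-25570936 (minus strand), which was lower. Capitals mark matches, on either strand, of CCAAT, the letters read by NF-Y, and of the SOX core ACAAT.
Sox4: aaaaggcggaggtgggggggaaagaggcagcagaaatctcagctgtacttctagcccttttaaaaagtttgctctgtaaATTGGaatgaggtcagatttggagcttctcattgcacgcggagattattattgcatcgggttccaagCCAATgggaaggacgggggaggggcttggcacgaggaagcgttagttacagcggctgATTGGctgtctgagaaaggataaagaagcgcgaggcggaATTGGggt
Six2: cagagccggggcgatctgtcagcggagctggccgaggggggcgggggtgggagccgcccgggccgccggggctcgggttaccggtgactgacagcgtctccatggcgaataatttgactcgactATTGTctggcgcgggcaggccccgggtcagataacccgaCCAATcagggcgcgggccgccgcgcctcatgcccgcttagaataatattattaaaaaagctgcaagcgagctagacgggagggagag
Foxo1: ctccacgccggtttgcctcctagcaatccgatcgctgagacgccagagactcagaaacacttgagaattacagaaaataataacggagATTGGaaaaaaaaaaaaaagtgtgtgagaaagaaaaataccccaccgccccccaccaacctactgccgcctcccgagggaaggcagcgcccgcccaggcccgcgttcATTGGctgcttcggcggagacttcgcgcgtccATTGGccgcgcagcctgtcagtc
Sox8: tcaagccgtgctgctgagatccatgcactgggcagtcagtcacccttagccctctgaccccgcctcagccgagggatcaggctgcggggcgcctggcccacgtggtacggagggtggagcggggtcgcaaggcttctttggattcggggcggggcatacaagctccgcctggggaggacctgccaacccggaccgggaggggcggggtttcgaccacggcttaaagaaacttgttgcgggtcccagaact

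CCAAT occurred 4 times in the Sox4 window, 3 times in that of Foxo1 and 1 time in that of Six2, with no match in that of Sox8. At least 1 match was found in 15 of the 29 members with a window in the table and in 33.8% of all 32851 windows of this length. For every motif, a member was counted if any of its windows matched, while the share over all is of single windows. These are unlike units, since a gene with more than 1 window matches more readily. ACAAT was found in 6 of the 29 (27.7% of all windows), with 1 match in Six2, and another SOX core, ACAAAG, also in 6 of the 29 (16.5% of all windows). The E-box CAGGTG, read by SNAI and ZEB proteins, was found in 5 of the 29, namely Foxa3, Foxp1, Foxp4, Snai1 and Sox6 (17.2% of all windows). The FOX site GTAAACA was in the window of Sox12 alone among members (3.17% of all windows), and the T-box core TCACACC in that of Sox6 alone (3.33%). ACAAT and CCAAT can overlap, and all motifs were searched on both strands. The window of Foxn3, the other member called in this comparison, starts 113508 bases inside the GENCODE gene and is not shown. Median GC content was 60.8% in the members' windows and 52.4% in all windows.

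By summed marker levels the libraries matched their labelled tissue, though not every marker did. The summed normalized count of 6 marrow stroma genes, Cxcl12 and Lepr among them, was 666741 to 817031 in the graft, 834003 to 1136390 in BM-MSCs and 10768 to 23097 in P-SSCs, and that of 6 periosteum genes was 174582 to 354124 in P-SSCs and at most 15434 in any marrow library. Postn itself had a mean of 58.7 in the graft, 4459 in BM-MSCs and 20882 in P-SSCs. Cxcl12 made up most of the marrow sum (means 630512 in the graft, 861822 in BM-MSCs and 5185 in P-SSCs). By gene, 5 of the 6 marrow genes were higher in the graft than in P-SSCs, and 1, Pdgfra, was lower (means 2573 and 9964). Of the 6 periosteum genes, 4 were lower in the graft than in P-SSCs, and Prrx1 and Ctsk were not called in any comparison. Libraries held 15415421 to 25223295 reads, and 3 reads, taken here as the smallest detectable amount, equal at most 0.195 ppm. More genes were at 0 in the graft (22.6% to 38.3%) than in BM-MSCs (11.5% to 15.9%) and P-SSCs (13.3% to 19.0%).

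The libraries also stood apart by the GC content of the genes they read. For genes of over 65% GC against genes of 50% to 60%, the median log2 deviation from the gene's mean was 1.52 to 2.80 in the 4 graft libraries and P-SSC 4, called here the high GC class, and -1.81 to -1.51 in the other 5 libraries. This split rests on 51 genes of over 65% GC, against 6033 genes of 50% to 60%. GC class and group cannot be told apart between graft BM-MSCs and BM-MSCs. The members are rich in GC, with a median of 54.2% against 49.7% over the genes tested, and 11 of the 43 (25.6%) exceeded 60%, against 4.01% of genes tested. P-SSC 4 was the highest P-SSC library for 25 of the 38 members tested (65.8%), against 37.2% of all genes tested. Members called against P-SSCs are therefore also given without this library or against it alone, and other results on P-SSCs only where leaving it out changed a call that is described.

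Values below are normalized counts, that is, read counts scaled by each library's size factor. They were compared as log2(value + 1) with limma over 13644 genes with a mean of at least 10, and a gene is called when its adjusted p is under 0.05. Of all genes tested, 6.08% were called higher and 12.0% lower in the graft than in P-SSCs. Against BM-MSCs, 2.61% were higher and 5.06% lower in the graft, and 4.57% higher and 4.58% lower in P-SSCs. Counts of called genes in the gene lists below are to be read beside these shares. A log2 change is given ± SE and understates the change of low genes. Of the 43 members, 38 were tested, and 16 of the 43 were above 0 in every library. Reads of the members made up 1059 to 1559 ppm of a graft library, 472 to 656 ppm of a BM-MSC library and 197 to 591 ppm of a P-SSC library, so that the graft lay above both other groups, which overlapped. In bulk samples, fewer cells of a type and less RNA per cell cannot be told apart.

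**Figure D1:**
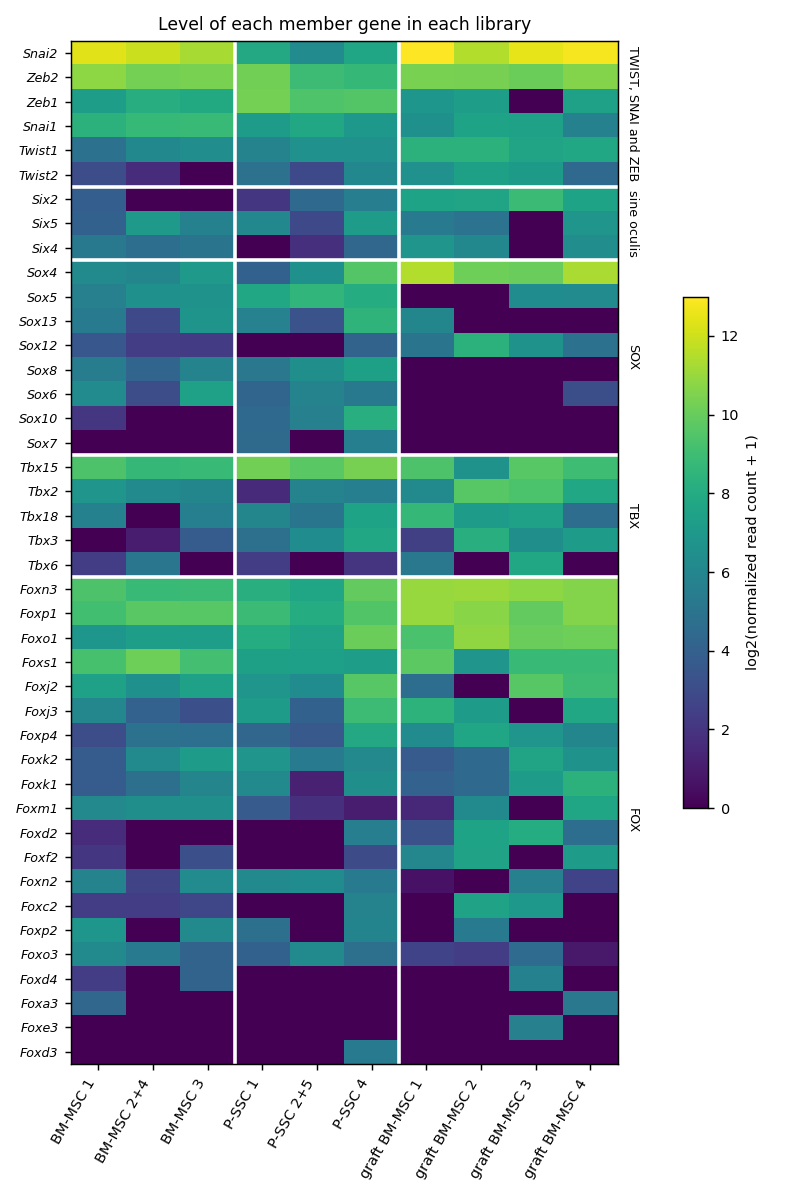
Heat map of 42 members (rows) by family in the 10 libraries (columns), with colour for log2(normalized count + 1). Snai2 is high in all marrow libraries and low in the 3 P-SSC libraries, and Sox7, Sox8 and Sox10 are at 0 in all 4 graft libraries.

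Of the TWIST, SNAI and ZEB group, Snai2 (ENSMUSG00000022676, chr16:14705852-14709385, plus strand), a repressor that drives epithelial-to-mesenchymal transition and neural crest migration, had the highest level of all members per kilobase of exon in both marrow groups. Its normalized count was 8593, 2876, 5802 and 7182 in graft BM-MSC 1 to 4 and 5556, 4022 and 2478 in BM-MSC 1, 2+4 and 3. In P-SSC 1, 2+5 and 4 it was 227, 75.2 and 206. Every marrow library, grafted or not, lay above every periosteal library, while graft and BM-MSC values overlapped. Snai2 was higher in graft BM-MSCs than in P-SSCs (log2 change 5.21 ± 0.49, adjusted p = 7.73e-05) and lower in P-SSCs than in BM-MSCs (-4.64 ± 0.53, adjusted p = 0.000309). Between graft BM-MSCs and BM-MSCs the log2 change was 0.57 ± 0.49 (adjusted p = 0.496). Both calls held in all 10 fits that left out 1 library. Within a GC class the log2 difference was 4.78 for the graft against P-SSC 4 alone and -4.85 for P-SSC 1 and 2+5 against BM-MSCs. Per kilobase, the mean level of Snai2 was 3025 in the graft, 1988 in BM-MSCs and 83.8 in P-SSCs, and its normalized count made up 31.9%, 39.1% and 2.28% of the members' sum.

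Zeb2 (ENSMUSG00000026872, chr2:44983632-45117395, minus strand), a repressor of E-cadherin that also acts in neural and myeloid cells, was read at a like level in the 2 marrow groups. Its normalized count was 1321, 1296, 1064 and 1532 in graft BM-MSC 1 to 4, 1753, 1247 and 1332 in BM-MSC 1, 2+4 and 3 and 1196, 484 and 404 in P-SSC 1, 2+5 and 4. The lowest values were those of P-SSC 2+5 and 4, and P-SSC 1 lay inside the range of the graft. No comparison was called (graft against P-SSC, 1.07 ± 0.38, adjusted p = 0.0803, and P-SSC against BM-MSC, -1.21 ± 0.41, adjusted p = 0.109). Without P-SSC 1 both were, at 1.54 (adjusted p = 0.0113) and -1.69 (adjusted p = 0.0118). Its paralog Zeb1 was 684 to 1233 in P-SSCs, 154 to 269 in BM-MSCs and 0 to 170.0 in the graft. P-SSCs thus lay above both other groups for Zeb1 with no call (graft against P-SSC, -4.35 ± 1.58, adjusted p = 0.084).

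The other members of this group were not called by limma in any comparison. DESeq2 on the read counts called Snai1, Twist1 and Twist2 between the graft and BM-MSCs (adjusted p = 0.0412, 0.00378 and 0.00279). Snai1, the paralog of Snai2, had means of 392 in BM-MSCs, 160.4 in P-SSCs and 125 in the graft, so the order of its group means was another than that of Snai2. The graft (51.8 to 187) and BM-MSCs (330.0 to 425) did not overlap for Snai1 (adjusted p = 0.114). Twist1, which restrains osteoblast differentiation, was 191 to 329 in the graft, 28.2 to 82.8 in BM-MSCs and 55.1 to 96.0 in P-SSCs. The graft was above both for Twist1, at 2.24 ± 0.72 against BM-MSCs (adjusted p = 0.0899) and 1.69 ± 0.72 against P-SSCs (adjusted p = 0.132). Twist2, a relative of Twist1 in skin and bone, was 20.7 to 169 in the graft and 0 to 7.31 in BM-MSCs, again without overlap (adjusted p = 0.056, and 0.0457 without P-SSC 4).

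**Figure D2:**
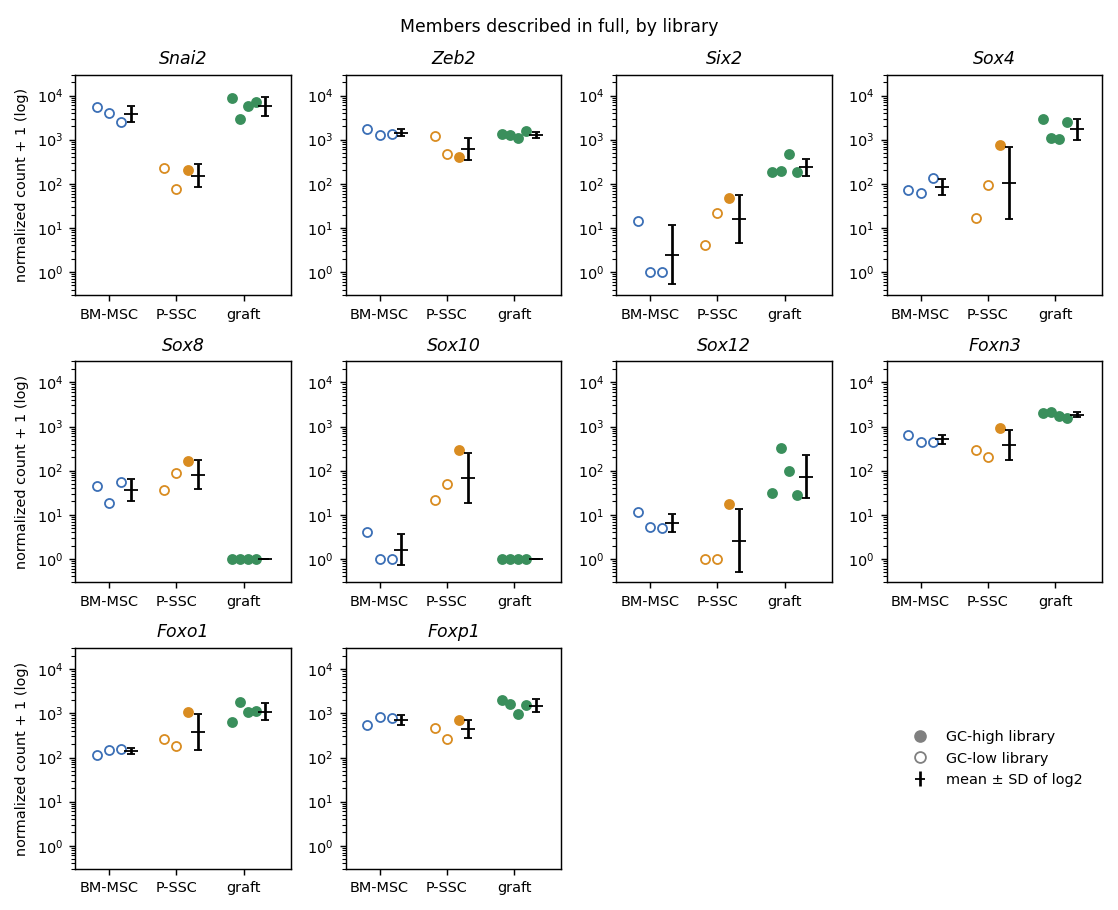
Normalized count + 1 (log axis) of the 10 members described in full, 1 point per library in BM-MSCs, P-SSCs and graft BM-MSCs, with the GC class of the library marked and the group mean ± SD on the log2 scale. Graft points lie above all BM-MSC points for Six2, Sox4, Sox12, Foxn3, Foxo1 and Foxp1 and are at 0 for Sox8 and Sox10.

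Of 8 TWIST partner genes tested, which encode E proteins, the ID proteins that sequester them and HAND1, Id4 alone rose in the graft. Its means were 1995 in the graft, 138 in BM-MSCs and 10.6 in P-SSCs (7.57 ± 0.61 against P-SSCs, adjusted p = 3.17e-05, and 3.82 ± 0.61 against BM-MSCs, adjusted p = 0.00584). In P-SSCs against BM-MSCs, the E protein gene Tcf4 (3162 against 1254, adjusted p = 0.0222) and Id2 (2418 against 609, adjusted p = 0.0435) were higher and Id4 was lower. Id3 was not called in any comparison. Without P-SSC 4, 2 of the 8 were higher and 1, Id3, was lower in the graft against each group (-1.19 against P-SSCs, adjusted p = 0.0128), and Id2 was no longer called (adjusted p = 0.0515). Of 13 epithelial genes, several of which SNAI and ZEB proteins repress, 6 were in the table and 4 were tested. The claudin gene Cldn3, with a mean of 986 in P-SSCs against 0.431 in the graft and 0.352 in BM-MSCs, and the keratin gene Krt19, with a mean of 866 in P-SSCs and 0 in every marrow library, were higher in P-SSCs than in both marrow groups (adjusted p 0.000148 to 0.000394). Cdh1, the gene of E-cadherin, was not called, with means of 34.3 in P-SSCs, 0 in BM-MSCs and 0.894 in the graft.

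Of the sine oculis family, regulators of muscle, kidney and craniofacial precursors, Six2 (ENSMUSG00000024134, chr17:85684277-85688274, minus strand), which keeps nephron progenitors undifferentiated, was 183, 195, 461 and 187 in graft BM-MSC 1 to 4. It was 13.6, 0 and 0 in BM-MSC 1, 2+4 and 3 and 3.12, 20.4 and 45.6 in P-SSC 1, 2+5 and 4. All 4 graft libraries lay far above all others. Six2 was higher in the graft than in BM-MSCs (6.60 ± 1.39, adjusted p = 0.0193), a call lost without BM-MSC 2+4 (5.95, adjusted p = 0.084) or BM-MSC 3 (adjusted p = 0.0801). With GC class as a covariate it was 4.29 and was not called (adjusted p = 0.757). The difference from P-SSCs missed the threshold (3.89 ± 1.39, adjusted p = 0.0788) and was 2.35 against P-SSC 4 alone. Six4 and Six5 were not called, with highest values of 108 and 145.

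Of 4 EYA coactivator genes tested, Eya2 was higher in the graft than in BM-MSCs (means 1405 and 254, 2.49 ± 0.60, adjusted p = 0.0322). Eya1 was higher in the graft (mean 150.4) than in P-SSCs, where it was at 0 in every library (adjusted p = 0.011), and Eya3 and Eya4 were not called. Without P-SSC 4, Eya2 was also higher than in P-SSCs (2.12, adjusted p = 0.0112). Muscle cells use Six4 and Eya genes too. Of 8 skeletal muscle genes, Pax7, Myf5, Myod1, Acta1 and Ckm were at 0 in all 4 graft libraries, and the summed level was 328 to 1999 in the graft, 754 to 1153 in BM-MSCs and 1296 to 3460 in P-SSCs. None of the 8 was called between the graft and BM-MSCs and 6 were lower in the graft than in P-SSCs (5 without P-SSC 4).

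Of the SOX family, 7 of 8 members were tested, and calls went in both directions. Sox4 (ENSMUSG00000076431, chr13:28948919-28953713, minus strand), a SOXC gene that supports survival of mesenchymal and neural precursors, was 2889, 1105, 1034 and 2572 in graft BM-MSC 1 to 4. It was 73.1, 61.2 and 132 in BM-MSC 1, 2+4 and 3 and 15.6, 90.4 and 739 in P-SSC 1, 2+5 and 4. The graft lay above both groups, and P-SSC 4 stood well above the other P-SSC libraries. Sox4 was higher in the graft than in BM-MSCs (4.33 ± 1.07, adjusted p = 0.0364) and in P-SSCs (4.04 ± 1.07, adjusted p = 0.025). With GC class as a covariate the first change was 0.08 (adjusted p = 0.991). The first call was lost in 7 of 10 fits that left out 1 library (adjusted p 0.0519 to 0.133), those without BM-MSC 1, 2+4 or 3, graft BM-MSC 1, 3 or 4, or P-SSC 2+5. The second was lost without graft BM-MSC 1 or 4 or P-SSC 1 or 2+5, was 5.45 without P-SSC 4 (adjusted p = 0.00158) and was 1.21 against P-SSC 4 alone. Sox4 was second to Snai2 in the graft per kilobase (396).

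Sox12 (ENSMUSG00000051817, chr2:152393611-152398063, minus strand), a SOXC paralog of Sox4, was 30.5, 320.4, 97.7 and 27.6 in graft BM-MSC 1 to 4. It was 10.4, 4.22 and 3.95 in BM-MSC 1, 2+4 and 3 and 0, 0 and 16.5 in P-SSC 1, 2+5 and 4. All graft values were above all others, and they varied widely among themselves (119 ± 138, SD, n = 4). Sox12 was higher in the graft than in P-SSCs (4.82 ± 1.43, adjusted p = 0.0407) and was not called against BM-MSCs (3.46 ± 1.43, adjusted p = 0.163). The call held in 3 of 10 fits that left out 1 library, those without graft BM-MSC 1 or 4 or P-SSC 4, and the difference from P-SSC 4 alone was 2.06.

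The SOXE genes Sox8 and Sox10, which act with SOX9 in neural crest and Schwann cells, had no read in any graft library. Sox10 (ENSMUSG00000033006, chr15:79154908-79165240, minus strand) was 20.8, 49.7 and 286 in P-SSC 1, 2+5 and 4, 3.13, 0 and 0 in BM-MSC 1, 2+4 and 3 and 0, 0, 0 and 0 in graft BM-MSC 1 to 4. All P-SSC libraries lay above all marrow libraries. Sox10 was higher in P-SSCs than in the graft (adjusted p = 0.00246), by at least 39.3-fold if a graft library held at most 3 reads. That limit covers counting error only. In the graft, 32.2% of all genes tested were at 0 in 1 or more libraries and at 50 or more in another. Without P-SSC 4 this limit was 11.7-fold (adjusted p = 0.00208). Sox10 was also higher in P-SSCs than in BM-MSCs (5.41 ± 1.12, adjusted p = 0.0107). Without P-SSC 4 this was 4.37 (adjusted p = 0.0103), and without BM-MSC 2+4 or BM-MSC 3 it was no longer called (adjusted p = 0.0514 and 0.0527).

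Sox8 (ENSMUSG00000024176, chr17:25565892-25570686, minus strand) was 35.3, 86.6 and 166 in P-SSC 1, 2+5 and 4, 43.9, 17.9 and 55.2 in BM-MSC 1, 2+4 and 3 and 0, 0, 0 and 0 in graft BM-MSC 1 to 4. The steady-state groups overlapped, and the graft lay below both. P-SSCs exceeded the graft by at least 31.7-fold (adjusted p = 0.00179) and BM-MSCs by at least 12.9-fold (adjusted p = 0.0152), each against 3 reads in a graft library. These limits too cover counting error only. Without P-SSC 4 the first limit was 20.2-fold (adjusted p = 0.00341). With GC class as a covariate the change against BM-MSCs was -6.74 and was not called (adjusted p = 0.174). The call against BM-MSCs was lost without BM-MSC 1 or BM-MSC 3 (adjusted p = 0.0529 and 0.0572).

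Of 8 Schwann cell genes, 7 were tested. In the graft 4 were lower and 1 higher than in P-SSCs and 1 was lower than in BM-MSCs, and in P-SSCs 1 was higher and 1 lower than in BM-MSCs. Those lower in the graft than in P-SSCs were 4 again without P-SSC 4, among them the myelin gene Mbp (means 0.216 in the graft, 362 in BM-MSCs and 1836 in P-SSCs, adjusted p = 0.000303). S100b, which cartilage also makes, was higher in the graft (940.3) than in P-SSCs (314, adjusted p = 0.0329, and 0.0515 without P-SSC 4), and Ncam1 was not called. Of the 8, 5 were at 0 in all 4 graft libraries, Erbb3, Cdh19 and Gfap among them. The summed level was 2085, 4144 and 8497 in P-SSC 1, 2+5 and 4, in the order of their Sox10 values, 2712 to 3404 in BM-MSCs and 1108 to 2347 in the graft. The part of Schwann cells in the Sox8 and Sox10 values was not tested.

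**Figure D3:**
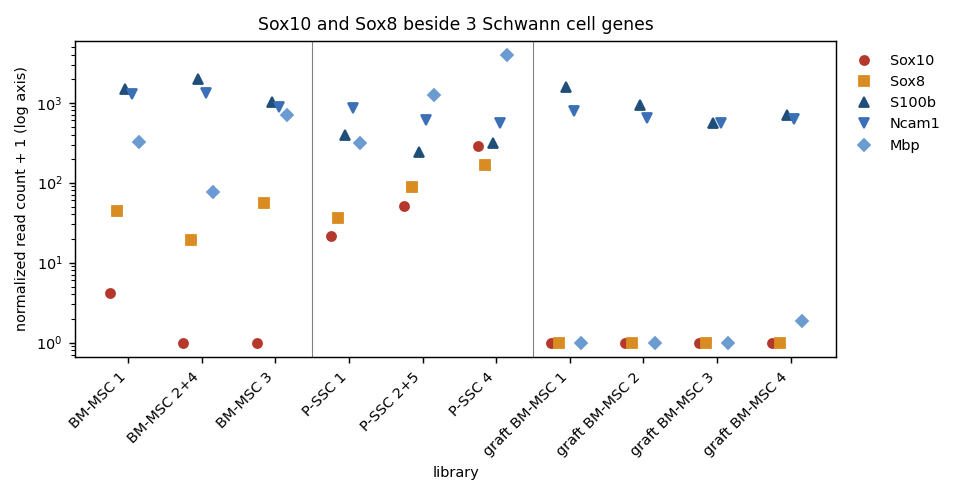
Normalized count + 1 (log axis) of Sox10, Sox8 and 3 abundant Schwann cell genes in each of the 10 libraries. Sox10 and Sox8 are at 0 in all 4 graft libraries, while S100b and Ncam1 are read in every group.

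The SOXD genes Sox5, Sox6 and Sox13 were not called. Sox5, which with Sox6 assists SOX9 in cartilage, was 218 to 381 in P-SSCs, 49.1 to 97.6 in BM-MSCs and 0 to 79.6 in the graft, and P-SSCs lay above both other groups (graft against P-SSC, adjusted p = 0.0737). Sox6 was 0 to 7.77 in the graft, 17.7 to 56.0 in P-SSCs and 7.38 to 176 in BM-MSCs (-4.32 ± 1.39 against P-SSCs, adjusted p = 0.056, and -4.82 ± 1.39 against BM-MSCs, adjusted p = 0.0638). Sox13, a SOXD gene of immune and vascular cells, was 0 in 3 graft libraries and above 0 in every steady-state library.

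Of 16 cartilage genes that SOX5 and SOX6 act on with SOX9, 11 were lower in the graft than in BM-MSCs, where 5.06% of all genes were called lower, and 5 were lower than in P-SSCs, where 12.0% were. None of the 16 was called higher in the graft, and 10 were at 0 in all 4 graft libraries. Without P-SSC 4, 4 were lower than in P-SSCs, and with GC class as a covariate 1 was lower than in each group. Their median log2 change was -7.84 against BM-MSCs, where that of all genes was -0.53. In P-SSCs, where Sox5 lay above BM-MSCs, 6 of the 16 were lower than in BM-MSCs and 0 were higher. Of all genes 4.58% were lower there, and the median log2 change of the 16 was -5.01. Col11a2 (means 333 in the graft, 10747 in BM-MSCs and 1722 in P-SSCs) and Col11a1, both of the cartilage fibril, were lower in the graft than in both groups (adjusted p 0.00491 to 0.0314), and without P-SSC 4 the call of Col11a1 against P-SSCs was lost (adjusted p = 0.0558). Col2a1, the main cartilage collagen, was not called against BM-MSCs (means 1425 and 50559, adjusted p = 0.0753), nor was Comp, which tendon also makes. Of 6 osteoblast genes, 3 were lower in the graft than in BM-MSCs, with Col1a1 lower than in both groups (-5.48 and -4.17 against BM-MSCs and P-SSCs), and 3 were higher than in P-SSCs. Their summed level was 73111 to 88434 in the graft, 590387 to 1266890 in BM-MSCs and 191842 to 422961 in P-SSCs, and the part of cells of the bone lineage in the Sox5 and Sox6 values was not tested.

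Sox7, a SOXF gene of endothelium, was 0 to 48.5 in P-SSCs, 0 in every marrow library and too low to be tested. The summed level of endothelial genes was 3535 to 7172 in P-SSCs, 251 to 534 in BM-MSCs and 0 to 341 in the graft. It came mostly from Tek (mean 4981 in P-SSCs), while Cdh5, a defining endothelial cadherin, had a mean of 25.1 there. Of 6 endothelial genes tested, 1 (Tek) was higher and 2 (Tie1 and Emcn) were lower in P-SSCs than in BM-MSCs. Tie1 and Emcn were at 0 in every P-SSC library, so the list did not go in a single direction. The part of endothelial cells in the Sox7 values was not tested.

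Of the TBX family, no member was called by limma or edgeR in any comparison, while DESeq2 on the read counts called Tbx2 and Tbx3. Tbx15, a regulator of limb skeleton growth, was the highest member in P-SSCs per kilobase (295), with normalized counts of 810.2 to 1284 in P-SSCs, 399 to 656 in BM-MSCs and 97.8 to 796 in the graft. P-SSCs lay above both other groups for Tbx15 (adjusted p = 0.163 for the graft and 0.494 for BM-MSCs). Tbx2, a repressor of cell cycle inhibitors, was 74.6 to 788 in the graft and 2.08 to 56.0 in P-SSCs (3.89 ± 1.24, adjusted p = 0.0542, and 0.0486 without P-SSC 4), and overlapped between the graft and BM-MSCs (61.1 to 108). Tbx3, its close paralog, was 27.0 to 221 in P-SSCs, 0 to 12.8 in BM-MSCs and 4.52 to 292 in the graft. Tbx18, of periosteal and perivascular lineages, was 24.2 to 410.2 in the graft, and Tbx6, of paraxial mesoderm, 0 to 213.

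Of the FOX family, 16 of 20 members were tested, and Foxn3, Foxp1 and Foxo1 were called, each higher in the graft. Foxn3 (ENSMUSG00000033713, chr12:99190078-99563582, minus strand), a repressor linked to the DNA damage checkpoint, was 2059.8, 2098, 1770.4 and 1561 in graft BM-MSC 1 to 4. It was 658, 439 and 457 in BM-MSC 1, 2+4 and 3 and 287, 205 and 937 in P-SSC 1, 2+5 and 4. The graft lay above both groups. Foxn3 was higher in the graft than in P-SSCs (2.28 ± 0.48, adjusted p = 0.00789) and than in BM-MSCs (1.87 ± 0.48, adjusted p = 0.0428). The first was 2.93 without P-SSC 4 (adjusted p = 0.000244) and 0.99 against P-SSC 4 alone. The second held in 2 of 10 fits that left out 1 library, those without P-SSC 2+5 or P-SSC 4, and its sign turned with GC class as a covariate (-0.08, adjusted p = 0.974).

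Foxp1 (ENSMUSG00000030067, chr6:98925338-99522721, minus strand), a repressor that delays differentiation of stromal cells, was 2059.8, 1650.3, 946 and 1535 in graft BM-MSC 1 to 4. It was 533, 818 and 799.9 in BM-MSC 1, 2+4 and 3 and 457, 268 and 703 in P-SSC 1, 2+5 and 4. The graft lay above both groups. Foxp1 was higher in the graft than in P-SSCs (1.75 ± 0.41, adjusted p = 0.0138), a call lost without P-SSC 2+5 (adjusted p = 0.0526), and was not called against BM-MSCs (1.08 ± 0.41, adjusted p = 0.134). Against P-SSC 4 alone the log2 difference was 1.08.

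Foxo1 (ENSMUSG00000044167, chr3:52268336-52353221, plus strand), which AKT signalling keeps out of the nucleus and which protects osteoblasts from oxidative stress, was 623, 1847, 1056 and 1105 in graft BM-MSC 1 to 4. It was 114, 149 and 153 in BM-MSC 1, 2+4 and 3 and 262, 179.6 and 1068 in P-SSC 1, 2+5 and 4. The graft lay above BM-MSCs, while P-SSC 4 was inside the graft range. Foxo1 was higher in the graft than in BM-MSCs (2.96 ± 0.63, adjusted p = 0.0198), a call lost when any 1 of the BM-MSC libraries was left out (adjusted p 0.063 to 0.072), and with GC class as a covariate the change was 0.67 (adjusted p = 0.887). Against P-SSCs it was not called (1.54 ± 0.63, adjusted p = 0.115), was called without P-SSC 4 (2.31, adjusted p = 0.0091) and was 0.01 against P-SSC 4 alone.

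Of 7 regulators of FOXO proteins tested, 2 rose in the graft against each group. Among them Akt1, of the kinase that excludes FOXO proteins from the nucleus, had means of 3303 in the graft, 340.2 in BM-MSCs and 647 in P-SSCs (adjusted p = 0.00182 and 0.00111). Akt2 was lower in the graft than in P-SSCs (1275 and 4150.2, adjusted p = 0.00303), and Sgk1 was not called, but without P-SSC 4 it was higher in P-SSCs than in BM-MSCs (1.31, adjusted p = 0.019). Of 15 FOXO targets tested, 2 were higher in the graft in each comparison and 1 was lower than in P-SSCs, where 12.0% of all genes were. Cited2, a transcriptional coregulator, was higher against both (means 2355, 147 and 298, adjusted p = 0.0193 for BM-MSCs and 0.00732 for P-SSCs). Sod2, the mitochondrial superoxide dismutase, was higher than in P-SSCs (2741 and 1131, adjusted p = 0.0151) and Cat, the gene of catalase, was lower (2172 and 3692, adjusted p = 0.044). Without P-SSC 4, 3 were higher than in P-SSCs. The targets' median log2 change was -0.28 against P-SSCs (0.20 without P-SSC 4) and 0.69 against BM-MSCs.

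The other FOX members were not called. Foxs1, a gene of pericytes and sensory neurons, was second to Snai2 in BM-MSCs per kilobase (582), with normalized counts of 557 to 1140.0 there, 156 to 166 in P-SSCs and 110.5 to 838 in the graft. P-SSCs lay below BM-MSCs for Foxs1 (-2.15 ± 0.69, adjusted p = 0.0908). Foxd2, of kidney and facial mesenchyme, was 8.47 to 259.8 in the graft and 0 to 2.09 in BM-MSCs (adjusted p = 0.0884). Without P-SSC 4, Foxd2 was called higher in the graft than in BM-MSCs (adjusted p = 0.034) and P-SSCs (adjusted p = 0.0227). Foxf2, of gut mesenchyme and brain pericytes, was 0 to 179 in the graft. Foxo3, the other FOXO gene, was 0.863 to 22.2 in the graft, 16.8 to 70.0 in BM-MSCs and 15.6 to 70.1 in P-SSCs. Foxc2, Foxj2, Foxj3, Foxk1, Foxk2, Foxn2, Foxp2 and Foxp4 had means of 31.0 (Foxp2) to 269 (Foxj2) over all libraries.

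Foxm1, which drives genes of mitosis, was 67.9 to 87.8 in BM-MSCs, 0.969 to 12.5 in P-SSCs and 0 to 205 in the graft, so that P-SSCs lay below BM-MSCs without a call (adjusted p = 0.308). Of 14 mitotic targets of FOXM1, 6 were lower in P-SSCs than in BM-MSCs (4 without P-SSC 4), where 4.58% of all genes were. In the graft 3 were lower than in BM-MSCs, where 5.06% of all genes were. The cyclin gene Ccnb1 had means of 551 in BM-MSCs, 0.425 in P-SSCs and 169 in the graft (P-SSC against BM-MSC, adjusted p = 0.0329, and 0.0931 without P-SSC 4), and Ccnb2 was called in the same comparison (adjusted p = 0.0434). Cdc20 and Cdc25b were not called. The summed level of leukocyte genes was 6736 to 21002 in BM-MSCs, 537 to 2380 in P-SSCs and 3084 to 17628 in the graft, and the part of leukocytes in the Foxm1 and target values was not tested.

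The members too low to be tested, besides Sox7, were Foxa3, Foxd3, Foxd4 and Foxe3, with highest values of 35.4, 40.7, 51.4 and 50.4. Foxd3, a neural crest factor, was read in P-SSC 4 alone, which also had the highest Sox10. Foxe3, a lens factor, was read in graft BM-MSC 3 alone, which also had the highest value of Foxd2, its neighbour at 16273 bases on chromosome 4.

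Between graft BM-MSCs and P-SSCs, 8 of 38 members were called (21.1%), 6 higher and 2 lower in the graft. Of all genes tested 18.1% were called, 6.08% higher and 12.0% lower. The members' total share was near this background, while by direction 15.8% of them were higher and 5.26% lower. The groups did not overlap for 15 members (39.5%), 9 higher and 6 lower, against 26.6% of all genes (8.06% higher and 18.5% lower). By family, 4 of 7 SOX, 2 of 16 FOX, 1 of 6 TWIST, SNAI and ZEB and 0 of 5 TBX members were called. The members' median log2 change was 1.28, against -0.47 for all genes, and -0.29 against -0.61 with P-SSC 4 as the only P-SSC library. All 8 called members kept their direction against P-SSC 4, and 6 of the 8 differences were smaller. edgeR on the recovered reads called 5, and Sox4 and Sox12 were not among them (adjusted p = 0.125 and 0.216), and with GC class as a covariate Snai2, Sox8 and Sox10 were the members called by limma. Over all 13644 genes, edgeR called 589 higher and 942 lower, and limma with GC class 382 higher and 699 lower. DESeq2 called Tbx2, Twist1 and Zeb1, which limma did not (adjusted p = 0.00378, 0.0227 and 0.0297), with 1210 of all genes higher and 1709 lower.

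**Figure D4:**
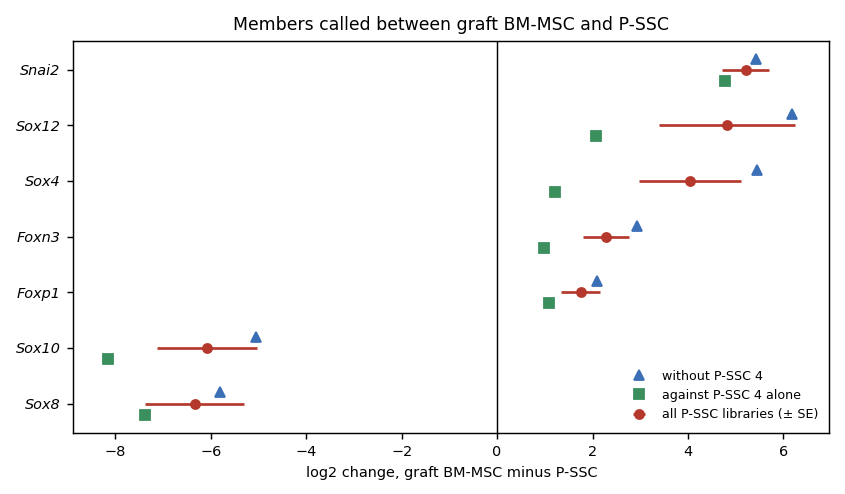
Log2 change of 7 of the 8 members called between graft BM-MSCs and P-SSCs, with all P-SSC libraries, without P-SSC 4 and against P-SSC 4 alone. Each member stays on the same side of 0 in all views, and Foxn3 comes nearest to 0, at 0.99 against P-SSC 4.

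Between graft BM-MSCs and BM-MSCs, 5 of 38 members were called (13.2%), with Foxn3, Foxo1, Six2 and Sox4 higher and Sox8 lower in the graft, against 7.67% of all genes (2.61% higher and 5.06% lower). The groups did not overlap for 13 members (34.2%), 11 higher and 2 lower, against 25.0% of all genes (10.3% higher and 14.7% lower). The members' median log2 change was 0.66, against -0.53 for all genes. Every graft library was of the high GC class and every BM-MSC library of the low one, so no value within a class exists here. With GC class as a covariate, which rests on P-SSC 4 against the other P-SSC libraries, 0 members were called by limma (2 at an unadjusted p under 0.05) and the members' median was -0.69. Of all 13644 genes, this fit called only 13 higher and 27 lower, with a median of -0.80, so few calls were left for any set of genes. edgeR on the recovered reads called 0 members (13 at an unadjusted p under 0.05), with 99 of all genes higher and 217 lower. DESeq2 called 12 members, with 918 of all genes higher and 1030 lower. Among the 12 were Foxd2, Sox6, Tbx3, Snai1, Twist1 and Twist2, which limma did not call.

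Between P-SSCs and BM-MSCs, 2 of 38 members were called (5.26%), with Sox10 higher and Snai2 lower in P-SSCs, against 9.15% of all genes (4.57% higher and 4.58% lower). The groups did not overlap for 13 members (34.2%), 6 higher and 7 lower, against 30.9% of all genes (15.1% higher and 15.8% lower). The members' median log2 change was 0.07, against 0.00 for all genes. Without P-SSC 4, when all libraries compared are of the low GC class, Sox10 and Snai2 were called again, with a members' median of -0.58 against -0.03. By edgeR and DESeq2, Sox10 was not called in this comparison (adjusted p = 0.247 and 0.0757). DESeq2 called Foxs1 lower and Tbx3 higher in P-SSCs (adjusted p = 0.0126 and 0.0437), which limma did not.

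**Figure D5:**
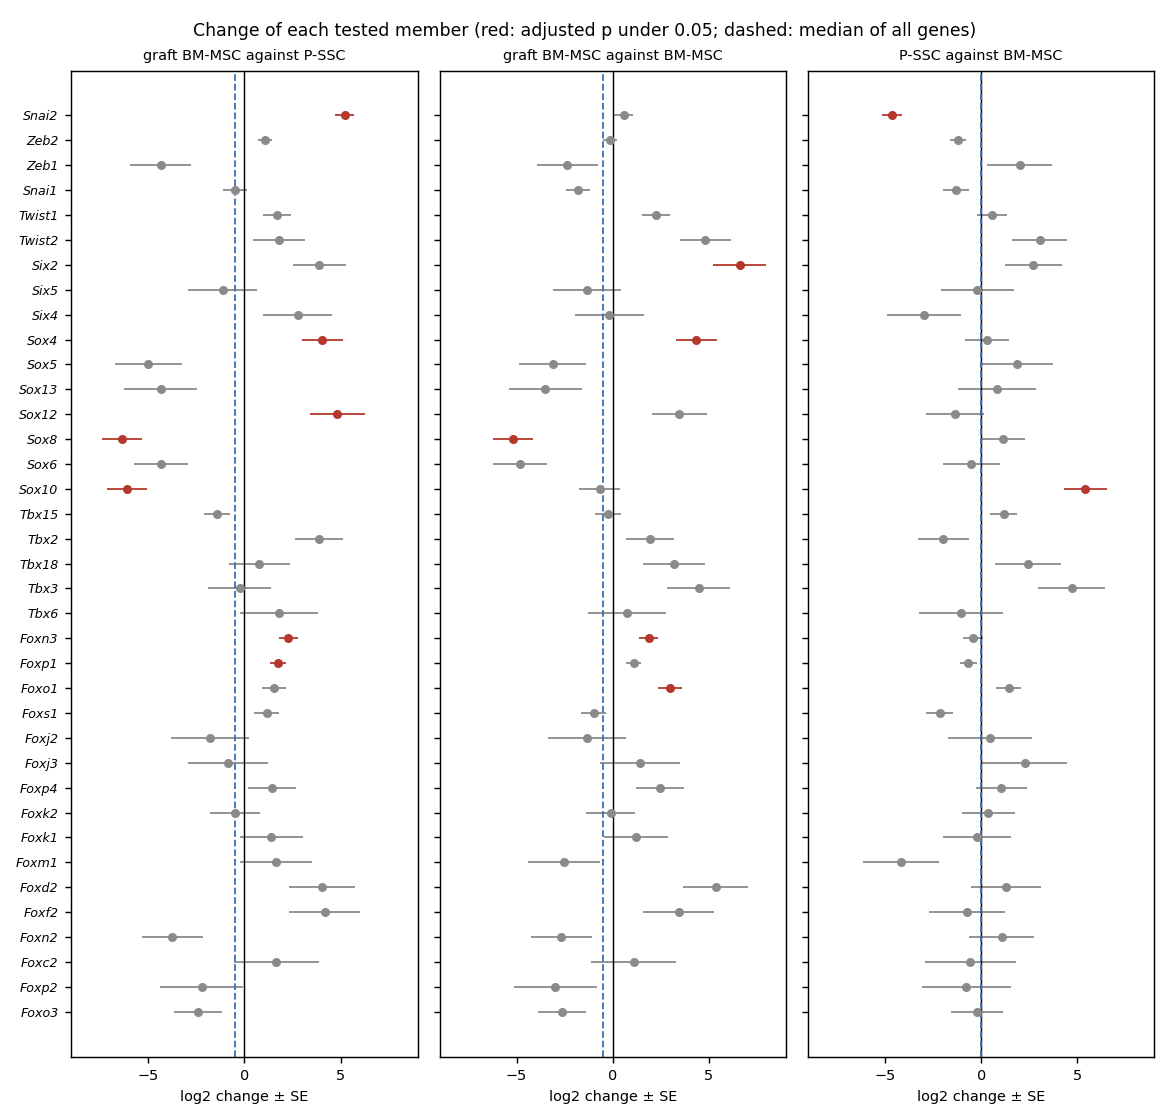
Log2 change ± SE of 37 of the 38 tested members in the 3 comparisons, marked where the adjusted p is under 0.05, with the median of all genes as a dashed line. Snai2 stands far from 0 in both comparisons with P-SSCs.

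Of the 38 members, 10 were called in at least 1 comparison, 5 of them in 2 (Foxn3, Sox4, Sox8, Sox10 and Snai2) and 0 in all 3. The like shares over all genes were not computed, so these counts cannot be set against a background. The comparisons share libraries and are not separate evidence. Values were least even within the graft, where 12 of the 38 members (31.6%) were at 0 in 1 or more libraries and at 50 or more in another, as were 32.2% of all genes tested, against 2 members in BM-MSCs and 2 in P-SSCs. Among them were Foxj2 (0 to 782), Foxj3 (0 to 340.1), Tbx6 (0 to 213) and Foxm1 (0 to 205).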

How the data were processed

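CD51+CD200+ cells were sorted and, per the labels, mRNA was taken from the total RNA with poly-T beads for the libraries. For alignment the study's methods give STAR on GRCm38 and the submitters' processing notes GRCm39, STAR 2.5, cutadapt 1.15, featureCounts of Subread 1.4.6 and DESeq2 1.26.0, a conflict that was not settled, and the strand setting is not given in the sources used here, so reads of paralogs, overlapping and antisense genes may be mixed. The deposited values are a signal, read counts that the authors divided by a size factor, and 100% of them gave whole reads within 0.01. Depth is the sum of these reads, and intervals and limits from reads cover counting error only. Replicates are RNA of different mice per the methods.

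Values were tested as log2(value + 1) with limma 3.58.1 in R 4.3.3 over all 10 libraries with 3 group means (7 residual degrees of freedom), for genes with a mean of at least 10 (1434 removed), with Benjamini-Hochberg adjustment over all 13644 genes. The script was tested on simulated data. Gene positions and GC content come from GENCODE on GRCm38, matched by Ensembl ID for 15052 genes. Members were given library by library if called with a group mean of at least 50 in any group, or with a mean of at least 1000; of each gene list, at most the 4 most abundant genes have values. Some genes that met these rules are not reported here. The members and lists were chosen with earlier results of these data known. Alternatives were other pseudocounts, filters, scalings and thresholds, GC correction, GC class as a covariate, a fit of 2 groups, a replicate block, edgeR 4.0.16 and DESeq2 1.42.0 on the recovered reads, and leaving out each library.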

Additional observations from a re-analysis of the deposited data

Results flagged for a closer look

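In graft BM-MSCs, 1 library stood far from the other 3 for 10 of 39 members examined, by the gap to its nearest neighbour over the range of the group. Chance flags about 1 in 20 groups, but the same held for 24.8% of all genes examined, so the members' share (25.6%) is read against that. For 6 of the 10 the other 3 libraries were at 0, where this ratio is 1 by construction. The library was high for Six2 (461 in graft BM-MSC 3, called above BM-MSCs in the report), Foxa3 (35.4 in graft BM-MSC 4), Foxd4 (51.4 in graft BM-MSC 3), Foxe3 (50.4 in graft BM-MSC 3), Foxp2 (40.5 in graft BM-MSC 2), Sox13 (61.6 in graft BM-MSC 1) and Sox6 (7.77 in graft BM-MSC 4); the last 6 are those with 0 in the other 3 graft libraries. It was low for Foxj3, Six4 and Zeb1, each at 0 in graft BM-MSC 3 and above 0 in the other 3.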

How the results depend on the processing

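Of 816 values of single members under an alternative, 682 kept direction and side of the threshold, 103 lost and 12 gained a call, 18 uncalled values changed sign, and 1 called value reversed (Foxn3 between the graft and BM-MSCs, -0.0793 with GC class as a covariate). For the graft against P-SSCs, 8 members were called, and 5 with a mean of at least 100, 14 after quantile normalization, 3 with GC class as a covariate, 5 by edgeR and 4 at an adjusted p under 0.01, with 4 to 11 when 1 library was left out (4 without P-SSC 2+5, 11 without P-SSC 4). For the graft against BM-MSCs, 5 were called, and 8 after GC correction, 0 with GC class, 0 by edgeR, 12 by DESeq2 and 0 at an adjusted p under 0.01, with 0 to 8 when 1 library was left out (1 without BM-MSC 1, 1 without BM-MSC 2+4, 0 without BM-MSC 3, 8 without P-SSC 4). For P-SSCs against BM-MSCs, 2 were called, and 1 with a mean of at least 100, 5 when only these groups were fitted, 1 by edgeR and 1 at an adjusted p under 0.01, with 1 to 3 when 1 library was left out (1 without BM-MSC 2+4 or BM-MSC 3). Over all genes, calls for the graft against BM-MSCs fell from 356 higher and 690 lower to 13 and 27 with GC class. The causes were not tested. Quantile normalization turned the split of calls to 6 higher and 0 lower for the graft against BM-MSCs and to 1 higher and 2 lower for P-SSCs against BM-MSCs. Over all genes the median change of the graft, -0.47 against P-SSCs and -0.53 against BM-MSCs, was 0.03 and -0.05 under edgeR and 0.29 and 0.24 after GC correction, while with GC class the members' median turned to -0.29 and -0.69.

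Replicate numbers are shared by at most 2 libraries of a comparison, and the correlations of their deviations were -0.0191 to 0.0295. Libraries were therefore not treated as paired, but so few pairs cannot settle whether libraries of different groups came from the same mice. A replicate block left 1, 0 and 1 members called in the 3 comparisons (6 at an unadjusted p under 0.05 in the second), and a replicate block with GC correction 1, 0 and 1 (11 in the second). Depth limits values of 0, each of which allows up to 3 reads by counting error alone.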
